A study of Mus musculus with 4 samples.

Results

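The 10 genes described here belong to iron handling and ferroptosis: Gpx4, Slc7a11, Aifm2, Acsl4, Hmox1, Fth1, Ftl1, Ncoa4, Tfrc and Slc40a1. They were taken by gene name from a table of 56748 genes, and each name matched 1 row. The table holds bulk RNA sequencing counts from mouse lungs with metastases of 4T1, a triple-negative mammary carcinoma line of BALB/c origin, which asks how a combined treatment changes the tumor-bearing lung. Female BALB/cJ mice, 7 weeks old, received 4T1-FLuc cells, which carry firefly luciferase, through the tail vein. The control group (n = 2) received saline, called PBS in the treatment label. The treated group (n = 2) received ADC/cmLumiOpto for 3 weeks, where the ADC is an anti-CD276 antibody carrying the microtubule poison mertansine, and cmLumiOpto is an AAV-borne gene therapy, packed in antibody-coated exosomes, that depolarises the mitochondria of cancer cells with light made by a luciferase. The treatment label writes cmLumi-Olap, an abbreviation that is not explained in it. No group received only 1 of the agents, so the part of each cannot be told apart. The labels give the ADC at 16 mg/kg and the study's methods at 8 mg/kg, the labels call the material tumor cells where the methods call it dissociated lung, and 2 of the 4 samples per group that the methods state were analysed here. Total counts were between 15263375 and 19675436 per sample, so that the 3 counts taken as the limit of detection correspond to 0.152 to 0.197 CPM, counts scaled to the size of the library. The replicates of a group differed by more than sampling noise (chi-square per degree of freedom of 26.2 for saline and 55.9 for treated samples). Nothing states which mouse each sample came from, so p-values measure only the spread between these samples.

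Ferroptosis is a form of cell death in which iron drives the peroxidation of polyunsaturated phospholipids in membranes. Cells hold it back by importing cystine through the antiporter subunit encoded by Slc7a11, by building glutathione from it, and by spending that glutathione through the peroxidase encoded by Gpx4, which reduces lipid hydroperoxides. Acsl4 loads membranes with the fatty acids that are oxidised. Iron enters the cell with transferrin through the receptor Tfrc, is stored in ferritin shells made of Fth1 and Ftl1 chains, is released from them by Ncoa4-directed autophagy, and leaves through the exporter ferroportin, encoded by Slc40a1. In lung tissue, macrophages take up red cells and recycle their iron.

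4 of the 10 genes carry iron-responsive elements in their transcripts, short hairpins to which iron regulatory proteins bind when iron is scarce. In the 5′ UTR such a hairpin blocks translation, and in the 3′ UTR it protects the transcript from decay, so only the second position acts directly on the RNA level that these libraries measure. The hairpins are shown because they divide the iron genes by how their RNA is controlled. The search used the letters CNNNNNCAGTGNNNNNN on the transcript strand, with the 5 bases after the 6-base loop able to pair with the 5 bases before it, G with T pairs included. The loop is in capitals below, each sequence runs 5′ to 3′ as DNA letters, and positions are those of GRCm38 in the GENCODE annotation.
Fth1 5′ UTR, chr19:9982738-9982754, plus strand: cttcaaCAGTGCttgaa
Ftl1 5′ UTR, chr7:45459785-45459801, minus strand: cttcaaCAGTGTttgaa
Slc40a1 5′ UTR, chr1:45925471-45925487, minus strand: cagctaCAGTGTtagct
Tfrc 3′ UTR, chr16:32631225-32631241, plus strand: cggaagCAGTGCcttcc
Tfrc 3′ UTR, chr16:32631604-32631620, plus strand: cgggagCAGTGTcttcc
Tfrc 3′ UTR, chr16:32631669-32631685, plus strand: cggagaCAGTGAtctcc
Tfrc 3′ UTR, chr16:32631716-32631732, plus strand: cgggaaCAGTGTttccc
Among 21877 coding genes, 31 (0.142%) had such a match in a 5′ UTR and 129 (0.59%) had one in a 3′ UTR, and no other gene of the 10 had one in either. A match is a description of the letters and not evidence of binding.

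The Slc7a11 promoter is shown because Slc7a11 had the largest difference of the 10 genes in absolute log2 terms. The 300 bases run from 250 bases before the start of the RefSeq transcript to 50 after it, at chr3:50443564-50443863 on the minus strand of GRCm38.p6, and capitals mark matches to TGATGCAA, the core of the amino acid response element, searched on both strands.
Slc7a11 promoter: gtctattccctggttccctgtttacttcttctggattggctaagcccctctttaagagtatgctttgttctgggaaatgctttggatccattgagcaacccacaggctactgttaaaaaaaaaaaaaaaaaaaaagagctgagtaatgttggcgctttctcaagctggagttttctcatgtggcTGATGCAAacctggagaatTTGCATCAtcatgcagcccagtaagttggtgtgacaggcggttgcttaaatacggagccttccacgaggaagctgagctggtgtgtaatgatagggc
The matches lay on opposite strands, at positions -66 to -59 and -47 to -40 from the start. Of 32851 RefSeq promoter windows of this length, 294 (0.895%) held at least 1 match and 2 (0.00609%) held 2 or more. Promoter windows were found for 8 of the 10 genes, not for Hmox1 and Slc40a1. The core of the antioxidant response element, TGACNNNGC, stood in 12.4% of all windows, and of the 8 genes only Ncoa4 had a match, at -44 to -36 of 1 of its windows.

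The levels of the 10 genes spanned a wide range. On the TPM scale, which divides each count by the gene length in the table and so allows genes to be compared, the saline means (SD, n = 2) were 4323 ± 692 for Fth1, 1653 ± 139 for Ftl1, 484 ± 40.4 for Gpx4 and 281 ± 1.25 for Acsl4. The saline TPM of Hmox1 was 148 ± 39.6. Slc7a11 at 40.3 ± 17.7, Tfrc at 37.0 ± 8.79, Aifm2 at 31.8 ± 3.64 and Ncoa4 at 23.8 ± 2.04 followed, and of these neighbours in rank Aifm2 and Ncoa4 differed by more than their SDs together, while Slc7a11 and Tfrc, and Tfrc and Aifm2, did not. The order of Aifm2 and Ncoa4 depends on the lengths used, which cover all annotated exons. Ncoa4 has 9365 bases there and 4733 in its longest GENCODE transcript, and Aifm2 has 4121 and 3086. Slc40a1 was lowest, at 3.75 ± 1.56 TPM. Fth1 ranked between 10 and 19 among protein-coding genes by TPM in the 4 samples, and Ftl1 between 54 and 72. In the treated samples Fth1, Ftl1, Gpx4, Acsl4 and Hmox1 kept the same order at the top, at 4066 ± 370, 1539 ± 77.7, 691 ± 27.3, 190 ± 39.5 and 132 ± 13.6 TPM, and Slc7a11 was at 8.17 ± 1.70 TPM. Slc40a1, at 11.1 ± 10.1 TPM, was below Slc7a11 in treated replicate 1 (3.94 against 6.97) and above it in treated replicate 2 (18.3 against 9.37).

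Between groups, all 10 genes passed the filter on low counts, and 0 of them reached the adjusted threshold of 0.05 by the quasi-likelihood method of edgeR. The same held for all genes, since 0% of 15320 tested genes were called and the smallest adjusted p, shared by 487 genes, was 0.116. At an unadjusted p under 0.05 the count was 5 of 10, against 23.2% of all tested genes. Gpx4, Tfrc and Slc40a1 were higher in treated samples (3 of 10, against 11.0% of all genes), and Slc7a11 and Ncoa4 were lower (2 of 10, against 12.2%). The replicates of the groups did not overlap for 2 genes that were higher (28.1% of all genes) and 3 that were lower (28.8%), shares no larger than those of all genes in the first case and close to them in the second. The median log2 fold change of the 10 genes was 0.063, beside 0.028 over all tested genes. The number called depended on the test: edgeR's exact test called Gpx4 and Slc7a11 at an adjusted p under 0.05, where it called 7.46% of all genes, and DESeq2 called the same 2 genes, where it called 9.99%. All values below are TMM-normalised CPM unless TPM is named, and adjusted p-values are those of the quasi-likelihood test.

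**Figure D1:**
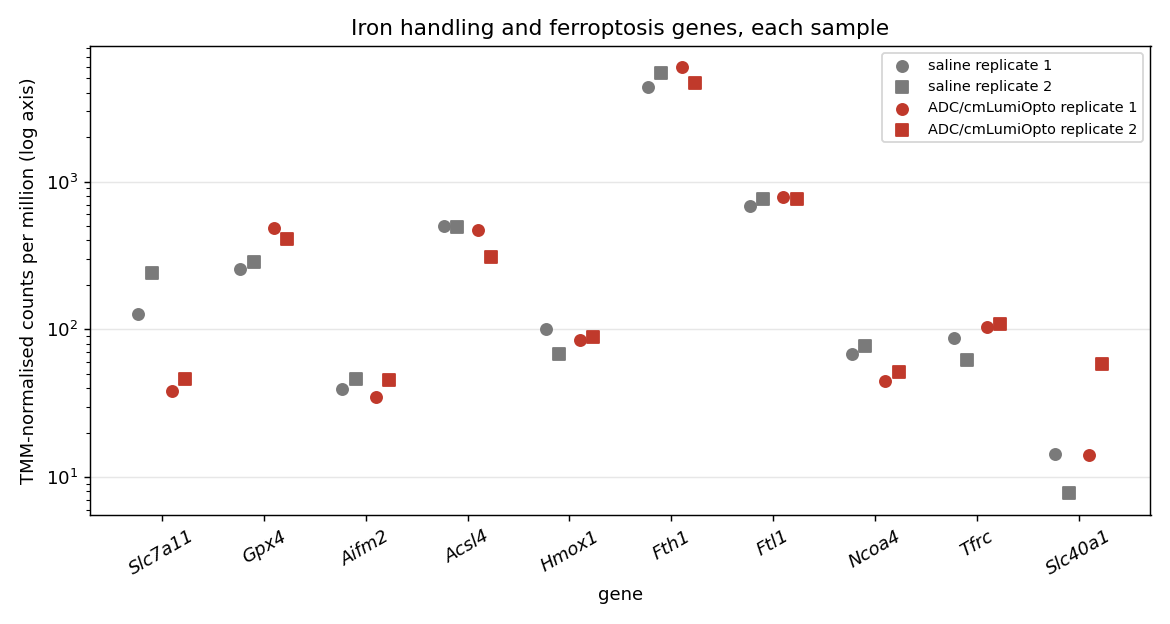
TMM-normalised CPM (log axis) of the 10 genes in each of the 4 samples, grey for saline and red for ADC/cmLumiOpto, circles for replicate 1 and squares for replicate 2. The red points lie below the grey ones for Slc7a11, Acsl4 and Ncoa4 and above them for Gpx4 and Tfrc. Only replicate 2 of the treated group is high for Slc40a1.

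Among the genes that defend membranes against lipid peroxides, the cystine importer and the peroxidase differed in opposite directions. Slc7a11 (ENSMUSG00000027737, chr3:49846975-50398063 as the count table gives it) was counted 2024 and 3551 times under saline and 679 and 950 times under treatment. In CPM these were 127 and 239 against 38.5 and 46.3. Every treated sample was below every saline sample, and the saline replicates themselves stood well apart. The log2 fold change was -2.11 ± 0.32 (SE), 4.31-fold lower in treated samples (adjusted p = 0.116 in edgeR), and the gene ranked 39 of 15320 by p. The exact test gave an adjusted p of 3.90e-06 and DESeq2 5.05e-08. With 1 sample left out at a time the log2 fold change lay between -2.51 and -1.57.

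Gpx4 (ENSMUSG00000075706, chr10:79883000-79892273), the peroxidase, had 257 and 288 CPM in saline samples and 486 and 411 in treated samples, from 4116, 4269, 8571 and 8435 counts. The treated samples were both above the saline samples, and each group's replicates were closer to each other than to the other group. It was 1.65-fold higher in treated samples, and its log2 fold change was 0.72 ± 0.17 (edgeR, adjusted p = 0.123). The adjusted p was 0.0362 by the exact test and 0.00798 by DESeq2. Short genes were higher in treated samples across the table (Spearman's rho of -0.340 between gene length and log2 fold change over 15320 genes, which are not independent replicates), and Gpx4 is short, at 1724 bases. With that trend removed its log2 fold change was 0.46 (adjusted p = 0.195 in edgeR), while that of Slc7a11 was -1.78.

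Aifm2 (ENSMUSG00000020085, chr10:61551042-61575039) encodes FSP1, which reduces coenzyme Q and works beside the glutathione route. Its CPM was 39.4 and 46.0 in saline samples and 34.6 and 45.3 in treated samples. The groups overlapped, and the log2 fold change was -0.10 ± 0.20 (adjusted p = 0.803 in edgeR).

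Acsl4 (ENSMUSG00000031278, chrX:141100989-141173531), the acyl-CoA synthetase that supplies peroxidation substrate, had 499 and 492 CPM in saline samples and 467 and 311 in treated samples. The treated samples were both lower, though replicate 1 of the treated group was close to the saline level and replicate 2 carried most of the difference. For Acsl4 the log2 fold change was -0.35 ± 0.22 (edgeR, adjusted p = 0.376), and it was -0.090 without replicate 2 of the treated group. The ratio of Gpx4 to Acsl4 in TPM was 1.62 and 1.83 in saline samples and 3.26 and 4.15 in treated samples. These did not overlap, with a mean log2 difference of 1.09 (exact permutation test, two-sided p = 0.333, the smallest that 2 samples against 2 allow). The ratio sets a short gene against a longer one (5405 bases), and the length trend was not removed from it. With that trend removed, the log2 fold changes were 0.46 for Gpx4 and -0.25 for Acsl4.

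**Figure D2:**
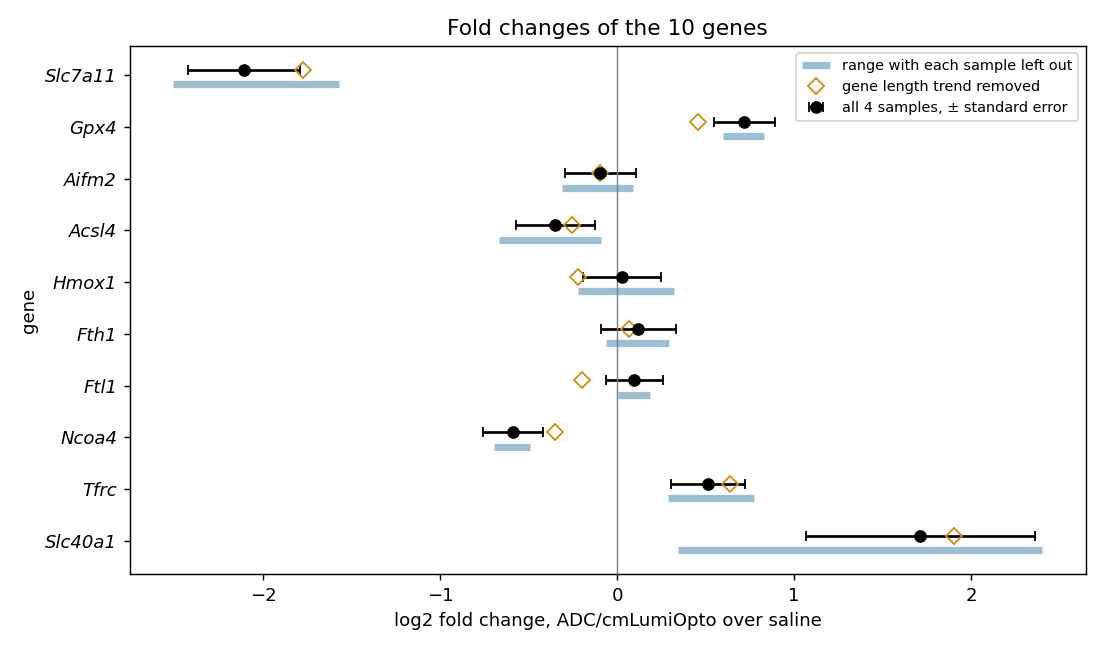
Log2 fold change of each of the 10 genes, ADC/cmLumiOpto over saline: black points with bars are the edgeR estimate ± standard error over all 4 samples, blue bars span the values with each sample left out in turn, and open diamonds are the values with the trend on gene length removed. Slc7a11 lies at -2.11 and stays below 0 in every version, as Ncoa4 does, Gpx4 and Tfrc stay above 0, and the blue bar of Slc40a1 runs from 0.34 to 2.40.

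Heme breakdown and iron storage showed little difference. Hmox1 (ENSMUSG00000005413, chr8:75820249-75827217), heme oxygenase-1, frees iron from heme. Its CPM was 101 and 68.5 in saline samples and 85.0 and 88.0 in treated samples, so that the treated values lay between the saline ones. The log2 fold change was 0.028 ± 0.219 (adjusted p = 0.954 in edgeR), and it was -0.22 with the length trend removed.

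Fth1 (ENSMUSG00000024661, chr19:9957962-9962462), the ferroxidase chain of ferritin, had 4355 and 5431 CPM in saline samples and 5952 and 4686 in treated samples. Ftl1 (ENSMUSG00000050708, chr7:45107368-45109308), the light chain, had 682 and 763 CPM against 788 and 758. The groups overlapped for both chains. The log2 fold changes were 0.12 ± 0.21 for Fth1 (adjusted p = 0.763) and 0.097 ± 0.161 for Ftl1 (adjusted p = 0.747), both from edgeR. Their mean TPM was slightly lower in treated samples, so the direction depended on the scale, as it did for Ftl1 with the length trend removed (-0.20). Both chains together took 0.501% and 0.602% of all counts in saline samples and 0.666% and 0.567% in treated samples. The ratio of Ftl1 to Fth1 in TPM was 0.406 and 0.364 in saline samples and 0.343 and 0.419 in treated samples, a mean log2 difference of -0.020 (exact permutation test, two-sided p = 1).

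Ferritin genes have near-identical copies in the mouse genome, so their counts depend on how shared reads were assigned. The copy Ftl1-ps1 had 288 and 317 counts in saline samples and 496 and 488 in treated samples, Ftl2-ps had between 0 and 9, and the other 4 copies listed had at most 1 count in a sample. Adding the copies to their parent genes changed no call.

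Ncoa4 (ENSMUSG00000056234, chr14:31881822-31901812), the receptor that carries ferritin to the lysosome, had 68.4 and 76.8 CPM in saline samples and 44.9 and 51.6 in treated samples. Both treated samples were lower than both saline samples. Its log2 fold change was -0.59 ± 0.17 (adjusted p = 0.134 in edgeR). Ncoa4 is long in the table, at 9365 bases, and with the length trend removed the log2 fold change was -0.35 and no longer reached an unadjusted p of 0.05 (adjusted p = 0.258 in edgeR).

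The importer and the exporter of iron were both higher in treated samples, one in both replicates and the other in only 1. Tfrc (ENSMUSG00000022797, chr16:32427738-32451612), the transferrin receptor, had 87.6 and 62.0 CPM in saline samples and 104 and 109 in treated samples. The groups did not overlap, and the treated replicates were close together. Tfrc was 1.43-fold higher, with a log2 difference of 0.51 ± 0.21 (edgeR, adjusted p = 0.206). The log2 difference was 0.77 without saline replicate 1 and 0.29 without saline replicate 2.

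Slc40a1 (ENSMUSG00000025993, chr1:45947228-45965683), ferroportin, had 14.3 and 7.75 CPM in saline samples and 14.1 and 58.3 in treated samples, from 229, 115, 248 and 1196 counts. Replicate 1 of the treated group lay between the saline samples, and replicate 2 alone was high. The log2 fold change was 1.71 ± 0.65 (adjusted p = 0.186 in edgeR), and without replicate 2 of the treated group it was 0.34. The ratio of Slc40a1 to Tfrc in TPM was 0.112 and 0.0859 in saline samples and 0.0926 and 0.367 in treated samples, and that of Fth1 to Tfrc was 88.6 and 156 against 102 and 76.4. Neither ratio separated the groups (exact permutation tests, two-sided p = 0.667 for each).

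The same treated sample stood apart in its neutrophil genes, while the other leukocyte lists were highest in other samples. The 7 neutrophil markers summed to 1157 and 534 CPM in saline samples and to 1159 and 8047 in treated samples, so the sample with high Slc40a1 was also the one with high neutrophil markers. The sum of the 6 endothelial markers was also highest there, at 474 and 368 CPM against 476 and 715. Among them Kdr was highest in saline replicate 1, at 67.6 and 57.6 CPM against 50.8 and 60.4. The 7 T cell markers summed to 52.5 and 20.2 CPM in saline samples and to 103 and 47.5 in treated samples. For the 6 alveolar macrophage markers the sums were 134 and 436 CPM against 82.3 and 215. Chil3 made up most of these sums, at 115 and 418 CPM against 41.7 and 162. Of the 6, 3 were higher in treated samples and 3 lower. Car4, at 7.56 and 7.21 CPM against 25.1 and 39.5, and Ear2, at 6.44 and 6.07 against 10.4 and 9.27, were higher without overlap (28.1% of all genes). None of the 6 was lower without overlap (28.8%). The 9 macrophage markers, from a cell type known for ferroportin, summed to 3248 and 2490 CPM against 6172 and 3830. Lyz2, which alveolar epithelium and neutrophils also express, made up much of that sum, at 1687 and 1128 CPM against 4299 and 2447. Of the 9, 6 were higher in treated samples and 3 lower, and 3 and 1 of these did not overlap, against 28.1% and 28.8% of all genes. Cd68, at 80.7 and 75.0 CPM against 107 and 92.8, and C1qb, at 312 and 249 against 477 and 321, were higher without overlap. Mrc1 was lower without overlap (log2 fold change -0.98), and Csf1r overlapped, at 305 and 157 against 247 and 202. The 8 erythroid markers summed to 1111 and 353 CPM against 1872 and 2076, and Tfrc, which erythroid precursors carry in large amounts, had the same order over the 4 samples. The sum of the 8 proliferation markers was lower in treated samples, at 1379 and 1409 CPM against 937 and 848. In edgeR's quasi-likelihood test, 6 of them were lower at an unadjusted p under 0.05, against 12.2% of all genes. Pcna and Cdk1 overlapped between groups. Every marker of these lists had counts in at least 1 sample. The part of any of these cell types in the values of Slc40a1 and Tfrc was not tested.

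**Figure D3:**
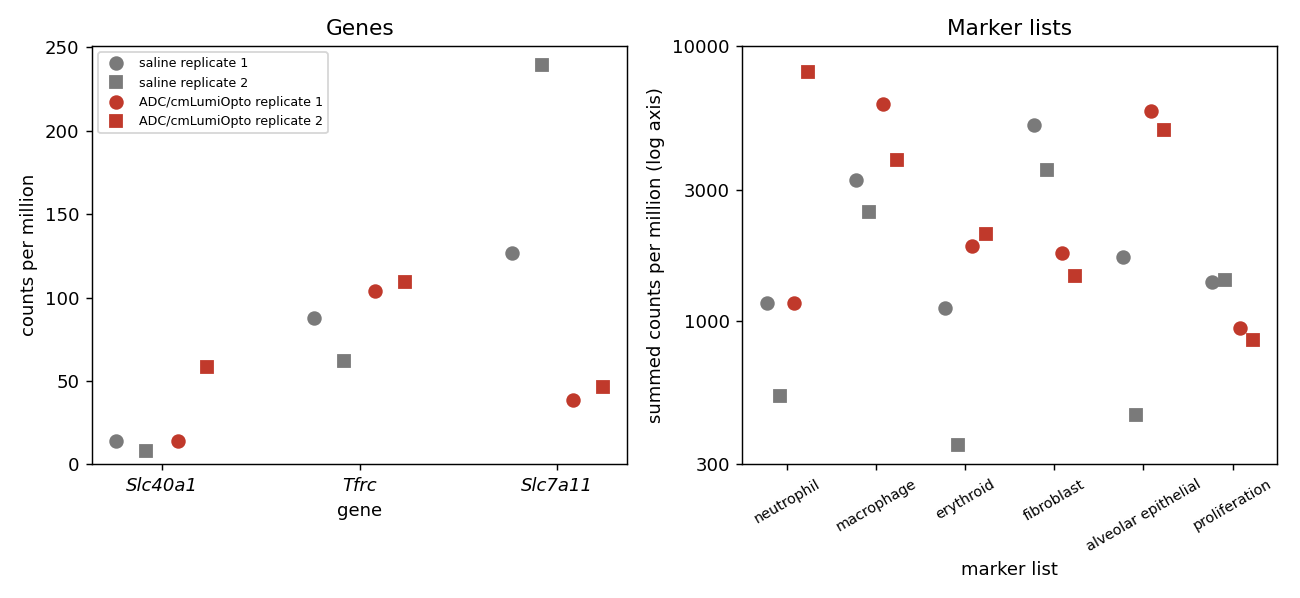
Left, CPM of Slc40a1, Tfrc and Slc7a11 in each sample. Right, the summed CPM (log axis) of 6 lists of marker genes in the same samples, grey for saline and red for ADC/cmLumiOpto, circles for replicate 1 and squares for replicate 2. Replicate 2 of the treated group is highest for Slc40a1 and for neutrophil markers (8047), and fibroblast markers are lower in both treated samples.

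Sums of markers of other tissue cell types also differed between the groups. The 7 alveolar epithelial markers summed to 1703 and 454 CPM in saline samples and 5818 and 4935 in treated samples. Sftpc made up much of that sum, at 1017 and 174 CPM against 4321 and 3426. Of the 7, 6 were higher without overlap (28.1% of all genes), and Abca3 was lower, at 146 and 128 against 113 and 121. The 7 fibroblast markers summed to 5151 and 3544 CPM against 1767 and 1459. The sum of the 7 carcinoma epithelial markers differed little, at 3101 and 3424 CPM against 3033 and 2949. Within it, Krt7 and Cdh1 were higher without overlap (2 of 7, against 28.1% of all genes). Krt8 and Krt18 were lower without overlap (2 of 7, against 28.8%). Whether this sum follows the amount of tumor was not tested. Slc7a11 was highest in saline replicate 2, where fibroblast markers were lower than in saline replicate 1. Alveolar markers were thus present in all 4 samples, although the labels call the material tumor cells. In bulk samples, fewer cells of a type and less RNA per cell cannot be told apart, and the part of the tissue makeup in the differences of Slc7a11, Gpx4 and Ncoa4 was not tested.

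A wider list of 73 genes of the same pathways was read from the same fit. Of these, 67 were tested, 38 were higher and 29 lower, and none passed the adjusted threshold in edgeR's quasi-likelihood test. At an unadjusted p under 0.05, 13 were higher and 8 lower, or 21 of 67 against 23.2% of all genes. The groups did not overlap for 29 genes that were higher (28.1% of all genes) and 16 that were lower (28.8%). The median log2 fold change was 0.071. The exact test and DESeq2 each called 11 of the 67 at an adjusted p under 0.05, against 7.46% and 9.99% of all genes. Without saline replicate 2 the count at an unadjusted p under 0.05 was 5 higher and 4 lower of 70, while the share over all genes was 10.3%. Hamp, which encodes hepcidin, and Ftmt, mitochondrial ferritin, had no count in any sample.

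**Figure D4:**
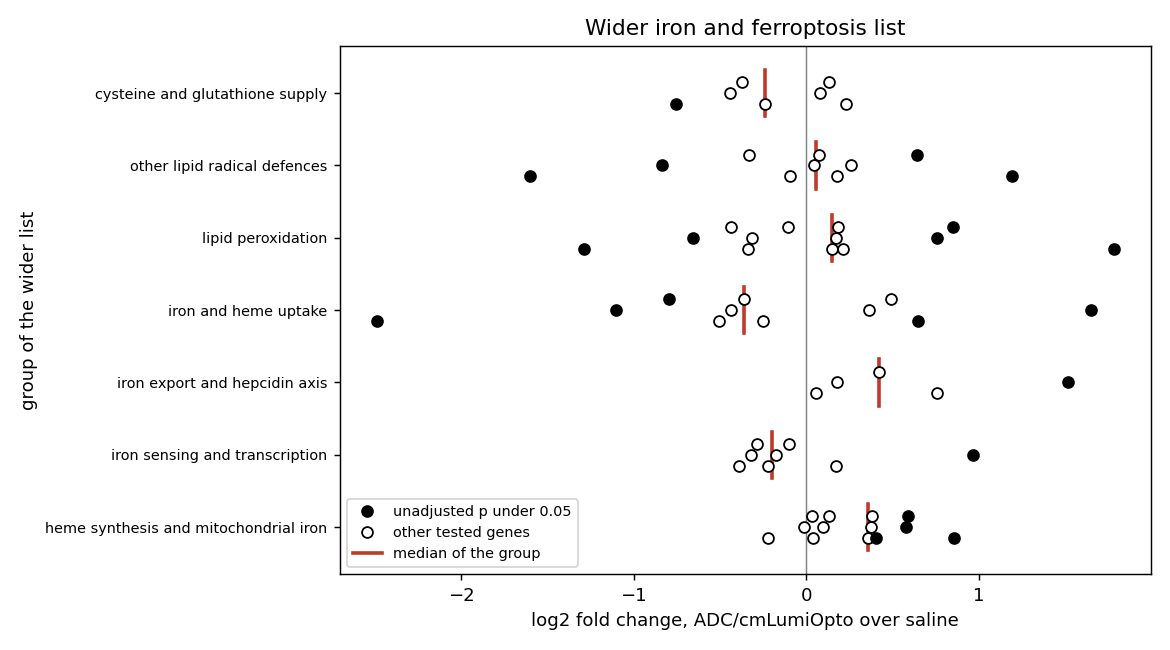
Log2 fold change, ADC/cmLumiOpto over saline, of the 67 tested genes of the wider list in 7 groups. Each point is a gene, filled where its unadjusted p was under 0.05, and the red line is the median of the group. Filled points lie on both sides of 0 in the uptake, peroxidation and lipid radical defence groups, and the 4 filled points of the heme and mitochondrial iron group all lie above 0.

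Genes that supply cysteine and glutathione were mostly near the saline level, with 1 of 7 tested genes lower and 0 higher at an unadjusted p under 0.05, against 12.2% and 11.0% of all genes. Gsr, glutathione reductase, had 165 and 242 CPM in saline samples and 115 and 126 in treated samples (log2 fold change -0.76 ± 0.22, adjusted p = 0.136 in edgeR). Gclm, a subunit of the enzyme that starts glutathione synthesis, had 47.0 and 74.8 CPM against 39.6 and 49.8, which overlapped (-0.44 ± 0.26, adjusted p = 0.333). Without saline replicate 2 the log2 fold changes were -0.45 for Gsr and -0.070 for Gclm. Slc3a2, the partner subunit of Slc7a11, had 222 and 202 CPM against 250 and 215 and overlapped between groups, with a log2 fold change of 0.13 ± 0.17. Chac1, which degrades glutathione and whose promoter window holds 1 match to TGATGCAA, had 3.94 and 5.80 CPM against 4.31 and 3.22. Slc3a2 and Chac1 were chosen for mention after their values were seen, as the partner of Slc7a11 and a gene that shares its promoter letters.

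Other defences against lipid radicals went both ways, with 2 of 10 higher and 2 lower at an unadjusted p under 0.05, against 11.0% and 12.2% of all genes. Gch1, which makes the antioxidant cofactor tetrahydrobiopterin, had 7.38 and 4.52 CPM in saline samples and 14.1 and 13.2 in treated samples (log2 fold change 1.19 ± 0.33, adjusted p = 0.126 in edgeR). Txnrd1, thioredoxin reductase, had 227 and 378 CPM against 165 and 175 (-0.83 ± 0.25, adjusted p = 0.143), and its log2 fold change was -0.42 without saline replicate 2. Slc7a11, Gsr, Gclm and Txnrd1 were each higher in saline replicate 2 than in saline replicate 1. Nqo1, a quinone reductase named here after its values were seen, showed the widest such gap, at 24.9 and 114 CPM in saline samples and 24.0 and 21.9 in treated samples. For Nqo1 the difference between groups rested on saline replicate 2.

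Among genes that make or oxidise peroxidation substrate, 3 of 13 were higher and 2 lower at an unadjusted p under 0.05, against 11.0% and 12.2% of all genes. Cyb5r1, a reductase that can pass electrons to oxygen, had 26.3 and 30.9 CPM in saline samples and 51.4 and 45.1 in treated samples (log2 fold change 0.76 ± 0.18, adjusted p = 0.123 in edgeR). Sat1, which acetylates polyamines, had 114 and 89.9 CPM against 153 and 214 (0.85 ± 0.22, adjusted p = 0.123). Neither overlapped between groups.

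Of 11 tested genes for uptake of iron and heme, 4 were higher and 7 lower, and 2 and 3 of these had an unadjusted p under 0.05, against 11.0% and 12.2% of all genes. Slc39a8, a metal importer that carries zinc, manganese and iron, had 33.8 and 21.4 CPM in saline samples and 79.2 and 94.0 in treated samples (log2 fold change 1.65 ± 0.25, adjusted p = 0.116 in edgeR). Lrp1, the receptor that takes up hemopexin with heme, had 803 and 1033 CPM against 359 and 495 (-1.10 ± 0.23, adjusted p = 0.116). Slc39a8 is known from lung epithelium, whose marker sum was higher in treated samples. Lrp1 is known from fibroblasts, whose marker sum was lower, and from macrophages, whose 9 markers went both ways (6 higher, 3 lower). The part of these cell types was not tested.

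In the export and hepcidin group all 5 tested genes were higher, as were 7961 of 15320 tested genes, and 1 of the 5 had an unadjusted p under 0.05, against 11.0% of all genes. Bmp6, a signal that induces hepcidin, had 5.44 and 1.89 CPM in saline samples and 7.48 and 13.6 in treated samples (log2 fold change 1.52 ± 0.56, adjusted p = 0.179 in edgeR). It was 2.46 without saline replicate 1 and 0.95 without saline replicate 2. Hfe had 29.7 and 24.2 CPM against 37.6 and 34.8 (0.42 ± 0.19, adjusted p = 0.237). Of 8 genes that sense iron, 2 were higher and 6 lower, and at an unadjusted p under 0.05 the counts were 1 higher and 0 lower, against 11.0% and 12.2% of all genes. Fbxl5, the ubiquitin ligase subunit that removes an iron regulatory protein when iron is plentiful, had 91.6 and 87.6 CPM against 162 and 188 (0.97 ± 0.17, adjusted p = 0.116). Pcbp2, an iron chaperone that also binds RNA, had 336 and 350 CPM against 238 and 285 (-0.39 ± 0.17, adjusted p = 0.225).

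Of 13 tested genes for heme synthesis and mitochondrial iron, 4 were higher and none lower at an unadjusted p under 0.05, against 11.0% and 12.2% of all genes. Alas1, which catalyses the first step of heme synthesis, had 61.3 and 41.5 CPM in saline samples and 98.3 and 87.4 in treated samples (log2 fold change 0.85 ± 0.22, adjusted p = 0.123 in edgeR). Iscu, the scaffold on which iron-sulfur clusters are built, had 35.9 and 36.2 CPM against 51.7 and 56.7 (0.59 ± 0.16, adjusted p = 0.126). The share of counts from mitochondrially encoded genes was also higher in treated samples, at 2.09% and 1.84% against 1.13% and 1.17%, and its part in these values was not tested.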

How the data were processed

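The authors deposited whole-number read counts per gene, without normalization. The submitters' processing notes name HISAT2, HISAT, TopHat2 and the build mm39, whereas the study's methods state GRCm38. Positions in the table differ from the GENCODE annotation of GRCm38, so they are given as the table has them and were matched to no sequence. The program that counted the reads is not given in the sources used here, nor is its use of strand. Counts were analysed in R 4.3.3 with edgeR 4.0.16: filterByExpr with its defaults (minimum count 10, minimum total 15), TMM, glmQLFit and glmQLFTest, and Benjamini-Hochberg adjustment over 15320 genes at 0.05. The standard error is the absolute log2 fold change divided by the square root of F. CPM used effective library sizes, and TPM used the gene lengths in the table, which cover all annotated exons. Alternatives were DESeq2 1.42.0, edgeR's exact test, other scalings and filters, a replicate block, removal of the length trend (lowess, span 0.3) and each sample left out. Named genes are the 10 members and the 2 smallest p-values in each of 7 groups of the wider list. Members and lists were chosen with earlier results of these data known. Promoters are from RefSeq (GRCm38.p6).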

Additional observations from a re-analysis of the deposited data

How the results depend on the processing

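The number of genes past an adjusted p of 0.05 depended on the test. The quasi-likelihood test called 0 of all tested genes, 0 of the 10 and 0 of the wider list, while 3553, 5 and 21 had an unadjusted p under 0.05. The calls were 1353, 2 and 11 with DESeq2, and 1143, 2 and 11 with edgeR's exact test. Without a filter on low counts, 25563 genes and 71 of the wider list were tested. The calls there were 2259, 3 and 17, and Slc40a1 joined Gpx4 and Slc7a11. With the replicate number as a block they were 607, 1 (Slc7a11) and 6. The replicate numbers come from the sample titles, which state no pairing. Over tested genes, the difference between replicates 1 and 2 under saline had a correlation of 0.099 with that under treatment. With 2 samples per group, this value cannot show whether same-numbered samples were paired. With each sample left out in turn the calls ranged from 0 to 218 over all genes, from 0 to 1 among the 10 and from 0 to 3 in the wider list, the highest without saline replicate 1. With a sample left out, the lone replicate is taken to vary like the other group. Library sizes without TMM, upper-quartile factors, at least 10 counts in every sample, protein-coding genes alone, the length trend removed and ferritin copies added each gave 0 calls.

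Over 24 named genes and their alternatives, 328 of 336 log2 fold changes kept their sign and 8 turned. Those with the length trend removed were -0.22 for Hmox1 and -0.20 for Ftl1. With a sample left out, Aifm2 ranged from -0.31 to 0.087, Hmox1 from -0.22 to 0.32 and Fth1 from -0.061 to 0.29. The 5 genes at an unadjusted p under 0.05 with all 4 samples (23.2% of all genes) kept their sign with each sample left out. Their log2 fold changes ranged from 0.60 to 0.83 for Gpx4, from -2.51 to -1.57 for Slc7a11 and from -0.70 to -0.49 for Ncoa4. Tfrc ranged from 0.29 to 0.77 and Slc40a1 from 0.34 to 2.40. Acsl4 was at -0.67 without treated replicate 1 and at -0.090 without treated replicate 2. With 2 samples per group, small differences in abundant genes such as Fth1 are limited by the spread between replicates and not by depth.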
